A study of Mus musculus with 6 samples.

Results

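Transcripts of 5 complement genes were followed in a mouse microglial cell line given adenine: *C1qa*, *C1qb* and *C1qc*, *C3*, and *Cfp*, which encodes properdin. They were taken by the symbols C1QA, C1QB, C1QC, C3 and CFP, ignoring case, from the annotation of the array, which gave 5 probes, 1 for each of the 5 genes, of 26423 probes and 17742 named genes in all. The genes were chosen by their change at the higher dose, known from earlier results of these arrays, so their values at the higher dose are given as a description, without a test, while their values at the lower dose were tested. The lower-dose test shares its control arrays with the change used for the choice, so it is not fully independent of the choice.

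The cells were BV2, an immortalised line derived from murine microglia, which are the macrophages that reside in the brain, with the viral oncogenes v-raf and v-myc, and all 6 arrays were of that line in the same serum-containing medium. Control cells received no adenine, and the others received a lower or a higher dose of adenine, a purine base, for 1 h, with 2 single-colour arrays in each of the 3 groups. The labels disagree on the doses: the titles give 20 and 80 µM and the sample characteristics 80 and 250 µM, so the groups are called lower and higher dose here. An array of a whole culture cannot tell more cells with a transcript from more transcript per cell. Whether arrays 1 and 2 of each group were separate cultures is not stated in the titles, and the p-values measure only the spread between these arrays.

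C1q is the recognition molecule of the classical complement pathway. It is assembled from A, B and C chains encoded by *C1qa*, *C1qb* and *C1qc*, binds antibody complexes, dying cells and, in the brain, synapses, and starts the cleavage of C3. C3 is the central protein of all complement pathways, whose fragments tag surfaces for uptake through complement receptor 3 and signal through the C3a receptor. Properdin, the product of *Cfp*, stabilises the convertase of the alternative pathway, which amplifies C3 cleavage. In the brain, microglia are the main source of C1q.

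In the RefSeq annotation of GRCm38.p6, *C1qb*, *C1qc* and *C1qa* are consecutive protein-coding genes on chromosome 4, *C3* lies on chromosome 17 and *Cfp* on the X chromosome. The regions from 250 bases before to 50 bases after the annotated start, from RefSeq with coordinates of GRCm38.p6, are shown for *C1qb*, *C1qc*, *C3* and *Cfp*, the 4 of the 5 genes matched in the RefSeq promoter table. They are set side by side because the neighbours *C1qb* and *C1qc* had like profiles, *Cfp* on another chromosome resembled them and *C3* did not. The likeness partly follows from the choice of the genes by their higher-dose change. Each is written 5′ to 3′ along the gene, and capitals mark matches, on either strand, to motifs described after the sequences.
C1qb (chr4:136886151-136886450, minus strand): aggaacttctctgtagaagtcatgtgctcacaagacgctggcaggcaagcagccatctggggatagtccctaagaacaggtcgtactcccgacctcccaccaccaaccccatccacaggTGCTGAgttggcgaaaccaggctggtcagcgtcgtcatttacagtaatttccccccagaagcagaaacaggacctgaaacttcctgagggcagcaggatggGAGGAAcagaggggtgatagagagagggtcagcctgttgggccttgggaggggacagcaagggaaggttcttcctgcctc
C1qc (chr4:136892865-136893164, minus strand): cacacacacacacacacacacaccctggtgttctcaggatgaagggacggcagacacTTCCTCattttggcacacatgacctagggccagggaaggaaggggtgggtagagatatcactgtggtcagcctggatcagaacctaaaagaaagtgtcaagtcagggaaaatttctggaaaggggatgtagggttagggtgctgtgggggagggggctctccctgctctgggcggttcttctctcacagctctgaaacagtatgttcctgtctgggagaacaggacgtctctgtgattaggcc
C3 (chr17:57228087-57228386, minus strand): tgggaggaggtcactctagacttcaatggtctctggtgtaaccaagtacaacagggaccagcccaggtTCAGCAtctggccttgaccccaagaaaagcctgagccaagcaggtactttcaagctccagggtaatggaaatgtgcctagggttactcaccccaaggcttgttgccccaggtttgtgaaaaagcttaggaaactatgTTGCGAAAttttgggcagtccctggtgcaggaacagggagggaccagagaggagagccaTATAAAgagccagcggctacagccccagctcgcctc
Cfp (chrX:20931506-20931805, minus strand): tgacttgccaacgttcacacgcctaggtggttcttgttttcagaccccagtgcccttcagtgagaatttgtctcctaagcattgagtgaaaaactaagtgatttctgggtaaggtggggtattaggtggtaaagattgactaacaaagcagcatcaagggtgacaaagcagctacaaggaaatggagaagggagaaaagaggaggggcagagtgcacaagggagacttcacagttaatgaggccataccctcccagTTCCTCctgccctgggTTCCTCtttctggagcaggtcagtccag

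The letters searched were GAGGAA, a core of sites of the myeloid factor PU.1; TGCTGA, a core of the recognition element of Maf factors; the interferon-stimulated response element, read as a pair of GAAA with any 2 bases between; TATAAA, the TATA box; and TTGCNNAA, a form of the C/EBP site. The motifs were chosen with the earlier results known. GAGGAA occurred in *C1qb*, *C1qc* and *Cfp*, and in 28.3% of all 32851 promoter windows of the same length. Its matches lay before the annotated start in *C1qb* and *C1qc* and after it in *Cfp*. TGCTGA occurred in *C1qb* and *C3*, against 19.5% of all windows. TTGCNNAA and TATAAA occurred in *C3* alone of the 4, the second after the annotated start, against 10.8% and 13.6% of all windows. The interferon-stimulated response element occurred in 0 of the 4 and in 3.44% of all windows. No match overlapped another, and none of them shows a bound site.

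Both arrays of the higher dose stood apart. In log2 values of the brighter 50% of probes, Pearson's r was 0.989 between these arrays, 0.929 to 0.941 between either of them and an array of control or the lower dose, and 0.978 to 0.986 among the remaining 4. The median intensity as deposited ranged from 125 to 170 units. Of 15 microglia and macrophage markers, 11 were measured, and 10 of these lay above the median probe, including *Csf1r*, *Itgam*, *Aif1*, *Ptprc* and *Spi1*. *Cx3cr1*, a receptor of resting microglia, lay below it. The summed normalized intensity of the 11 was 88242 to 91292 units in control, 88085 to 92950 at the lower dose and 107410 to 128322 at the higher dose. *Cd68* and *Fcgr3*, singled out after their values were seen, made up 49269 to 53056 units of this in control, 52390 to 55180 at the lower dose and 73988 to 94693 at the higher dose. The other 9 summed to 38236 to 38973 units in control, 35694 to 37770 at the lower dose and 33422 to 33629 at the higher dose. The net rise of the sum at the higher dose thus lay in those 2 genes, but such sums follow the brightest probes. Among the other 9, *Aif1* was 4.19-fold above control (log2 2.07 ± 0.16), at 504 and 464 units in control and 2188 and 1874 at the higher dose. *Csf1r* had 11944 and 11257 units in control and 8616 and 8017 at the higher dose. Of the 11, 3 rose at the higher dose against control in limma (*Aif1*, *Itgam* and *Fcgr3*) and 0 fell, where 6.37% of all named genes rose and 5.39% fell. The median log2 change of the 11 was −0.13, with 5 of them above 0. *Cd68*, with 64073 and 46027 units on the higher-dose arrays, did not pass (log2 0.64 ± 0.22, adjusted p = 0.13, limma). *Aif1* passed in 8 of 13 alternatives (adjusted p up to 0.107), *Fcgr3* in 5 (up to 0.204) and *Itgam* in 3 (up to 0.199). The 31 measured markers of astrocytes, neurons, oligodendrocytes, endothelium, fibroblasts and lymphocytes, of 36 listed, summed to 8900 to 9028 units in control, 9398 to 9459 at the lower dose and 8672 to 9448 at the higher dose, and 0 of them lay under 1 unit on every array. Of the 31, 0 passed in limma at either dose against control, and 3 and 8 had an unadjusted p under 0.05 at the lower and the higher dose, as had 6.36% and 29.1% of all probes. The part of the macrophage markers in the results below was not tested.

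All 5 probes lay above the median probe. Their values as deposited ran from 249 to 21534 units, far below the highest value on the arrays, 65489. The lowest were those of *C1qa* in control and at the lower dose, 249 to 305 units, where the array medians were 125 to 170. Signal over background was not given, so how far these *C1qa* values stood above background cannot be told. Intensities were quantile-normalized between arrays before the values below were taken. Apart from the marker sums above, intensities of different probes are not compared with each other.

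*C1qa*, the A chain of C1q, had 291 and 308 units in control, 267 and 209 at the lower dose and 1894 and 2262 at the higher dose. Both higher-dose arrays lay far above the other 4. At the higher dose it was 6.91-fold above control (log2 2.79 ± 0.19, SE, n = 2 per group). *C1qb*, the B chain, had 980 and 1435 units in control, 867 and 875 at the lower dose and 6403 and 8303 at the higher dose, 6.15-fold above control (log2 2.62 ± 0.25). Its control arrays differed more from each other than its lower-dose arrays did. *C1qc*, the C chain, had 2046 and 2260 units in control, 1510 and 1889 at the lower dose and 13180 and 11845 at the higher dose. It was 5.81-fold above control at the higher dose (log2 2.54 ± 0.18). For each of the 3 chains the lower-dose arrays were the lowest of the 6, the control arrays lay next, and the higher-dose arrays lay apart at the top.

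*C3* had 1802 and 1818 units in control, 2339 and 2659 at the lower dose and 3933 and 4042 at the higher dose. Its values stepped up from group to group with no overlap, and at the higher dose it was 2.2-fold above control (log2 1.14 ± 0.15). *Cfp* had 2490 and 2486 units in control, 2920 and 3036 at the lower dose and 18378 and 15992 at the higher dose. The *Cfp* transcript was thus 6.89-fold above control at the higher dose (log2 2.78 ± 0.15), close in size to those of the C1q chains, but its lower-dose arrays lay above control and not below it.

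**Figure D1:**
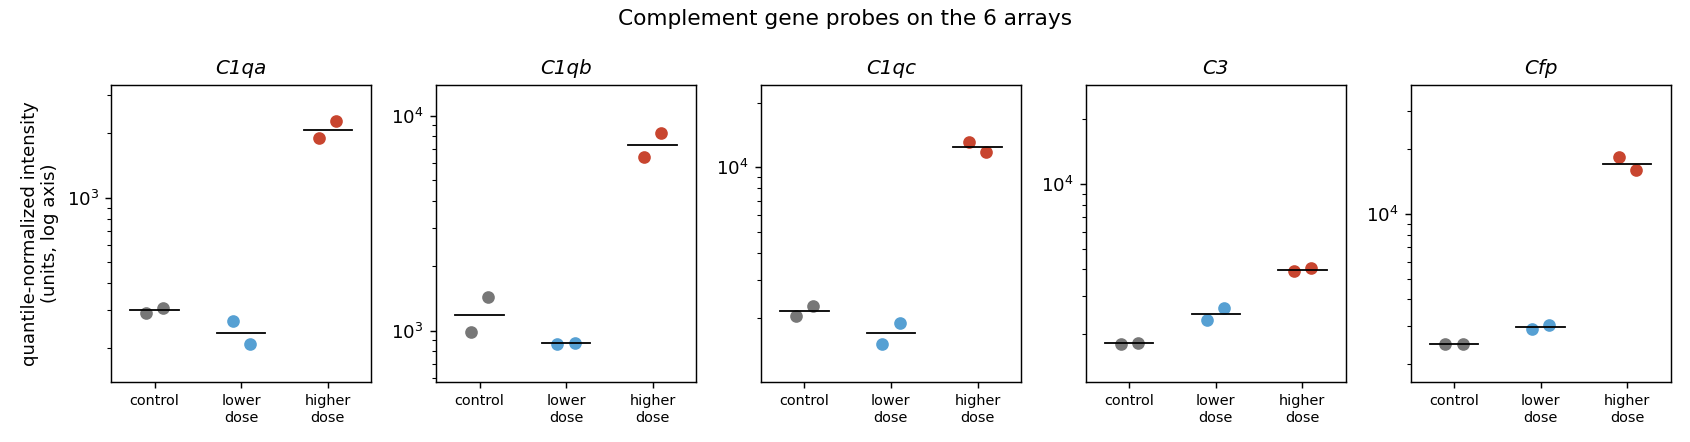
Quantile-normalized intensity in units (log axis, the same number of doublings in each panel) of the 5 probes in control, lower-dose and higher-dose cells, with 1 point per array and a line at the geometric mean of the 2 arrays. The higher-dose points are the top pair for every gene, at 1894 and 2262 for *C1qa* and at 18378 and 15992 for *Cfp*, and the lower-dose points lie under control for the C1q chains and above it for *C3* and *Cfp*.

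The higher-dose arrays lay above both control arrays for 5 of 5 genes, as did 28.9% of all probes, and the median log2 change of the 5 was 2.62, against −0.01 over all probes. At an adjusted p under 0.05 in limma, 5.55% of all probes rose at the higher dose against control and 5.06% fell. Ranked by log2 change against control, *C1qa*, *Cfp*, *C1qb* and *C1qc* were at places 37, 38, 46 and 52 from the top of 26423 probes, and *C3* was at place 1373. Set against the lower dose, the C1q chains differed more than against control: *C1qa* was 8.76-fold higher (log2 3.13 ± 0.19), *C1qb* 8.37-fold (3.07 ± 0.25) and *C1qc* 7.4-fold (2.89 ± 0.18). *C3* was 1.6-fold (0.68 ± 0.15) and *Cfp* 5.76-fold (2.53 ± 0.15) above the lower dose. The higher-dose comparisons share the higher-dose arrays, so they are not independent of each other. In all 13 alternative settings the values stayed positive. Against control they ranged from 2.60 to 2.92 for *C1qa*, 2.35 to 2.90 for *C1qb*, 2.35 to 2.69 for *C1qc*, 1.05 to 1.20 for *C3* and 2.64 to 2.98 for *Cfp*. Since the normalized groups did not overlap, only omitting normalization, equalizing the array medians or removing the gene span trend could have changed a sign.

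The lower dose against control asked whether the same genes moved at less adenine, and none of the 5 passed. *C1qa* stood at log2 −0.34 ± 0.19 (adjusted p = 0.772, limma), *C1qb* at −0.44 ± 0.25 (adjusted p = 0.772) and *C1qc* at −0.35 ± 0.18 (adjusted p = 0.77). *C3* stood at 0.46 ± 0.15 (adjusted p = 0.764) and *Cfp* at 0.26 ± 0.15 (adjusted p = 0.775). In limma 0 of 5 were called, where 0.0114% of all probes were, and 1 of 5, *C3*, had an unadjusted p under 0.05, as did 6.36% of all probes. At this dose the arrays of the groups did not overlap for the 3 C1q chains, which lay lower, or for *C3* and *Cfp*, which lay higher. Of all probes, 16.7% lay apart with the lower dose lower and 18.5% with it higher. The separation of the C1q chains depended on the normalization. As deposited, the lower-dose and control arrays overlapped for all 3: *C1qa* read 272 and 249 units at the lower dose and 261 and 305 in control, *C1qb* 923 and 1001 against 910 and 1487, and *C1qc* 1629 and 2132 against 1907 and 2309. *C3* read 2488 and 2950 units at the lower dose and 1684 and 1873 in control, and *Cfp* 3120 and 3342 against 2293 and 2562, apart also as deposited. In those values 39.2% of all probes lay apart with the lower dose higher, 4.92% lay apart with it lower, and the median change over all probes was 0.22. Without overlap in the normalized values, most alternatives could not change the sign of a member. Omitting normalization, equalizing the array medians and removing the gene span trend could. The log2 changes of the 5 kept their sign in all 13 alternatives, from −0.52 to −0.12 for *C1qa*, −0.72 to −0.17 for *C1qb*, −0.51 to −0.17 for *C1qc*, 0.36 to 0.61 for *C3* and 0.16 to 0.41 for *Cfp*, and none was called in any of them (lowest adjusted p 0.446, for *C3*).

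**Figure D2:**
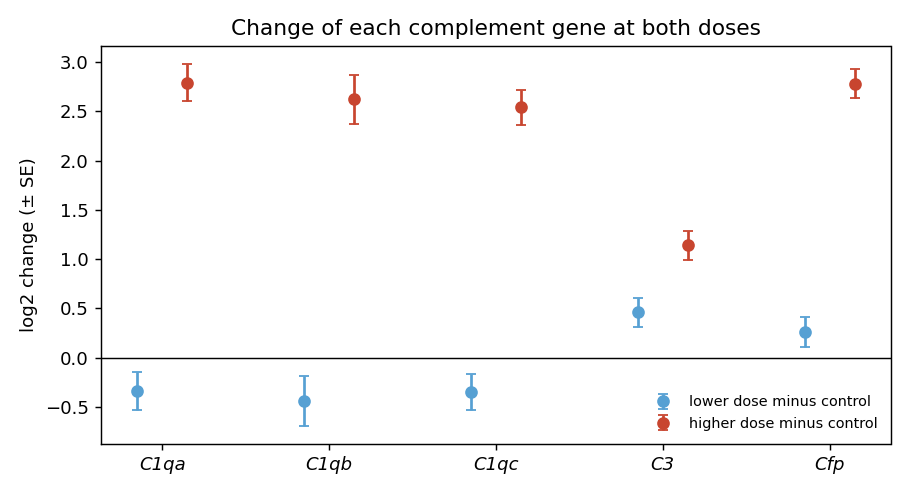
Log2 change against control, with its standard error from the limma fit, of each gene at the lower and the higher dose (2 arrays per group). The 3 C1q chains lie between −0.44 and −0.34 at the lower dose and between 2.54 and 2.79 at the higher dose, while *C3* (0.46 and 1.14) and *Cfp* (0.26 and 2.78) lie above 0 at both.

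The 3 chains of C1q kept nearly the same profile over the 6 arrays, though a shared rise at the higher dose was part of their choice. With each gene's log2 values centred on its own mean, *C1qa*, *C1qb* and *C1qc* lay within 0.24 of their common mean on every array. Relative to its mean in control, the log2 ratio of *C1qa* to *C1qb* ranged from −0.24 to 0.28 over the arrays, that of *C1qa* to *C1qc* from −0.33 to 0.46 and that of *C1qb* to *C1qc* from −0.25 to 0.35. *Cfp* differed from the C1q mean by at most 0.41 on any array, with a root mean square difference of 0.30. *C3* differed by 0.98 in root mean square. Relative to control, its log2 ratio to *C1qa* was 0.54 and 1.07 on the lower-dose arrays and −1.54 and −1.76 on the higher-dose arrays.

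Among 10282 other named genes above the median probe, the 5 with the smallest root mean square difference from the C1q mean over the 6 arrays were *Isg15*, *Cbr2*, *Apoc1*, *Ccl7* and *Gmfg*. *Isg15*, an interferon-induced ubiquitin-like modifier, was closest, at a difference of 0.20 (Pearson r = 0.995). It had 335 and 334 units in control, 302 and 246 at the lower dose and 2749 and 2517 at the higher dose. *Cbr2*, a carbonyl reductase gene, followed at 0.21 (r = 0.992), with 795 and 689 units in control, 519 and 576 at the lower dose and 3870 and 3630 at the higher dose. Like the C1q chains, both had their lowest pair of arrays at the lower dose, which a choice by likeness over all 6 arrays favours. The apolipoprotein gene *Apoc1* and the chemokine gene *Ccl7* lay at 0.24 (r = 0.985 and 0.986) and *Gmfg*, an actin-regulatory gene of blood cells, at 0.26 (r = 0.984). *Gmfg* is given by its brightest of 3 probes, with a log2 change of 2.67 against control at the higher dose, where its other probes stood at 0.94 and 1.96. The median difference of all 10282 genes was 1.38. A high correlation alone was common: 844 of them, or 8.21%, had r of at least 0.95 with the C1q mean, as the points share 6 arrays of which 2 stood apart. By the same measure 7 of the 10282 genes lay closer to C1q than *Cfp* did, and 1127 closer than *C3*. The higher-dose arrays dominate this measure, and the complement genes were chosen by their change there. The closeness of *Cfp* to C1q thus partly follows from the choice.

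**Figure D3:**
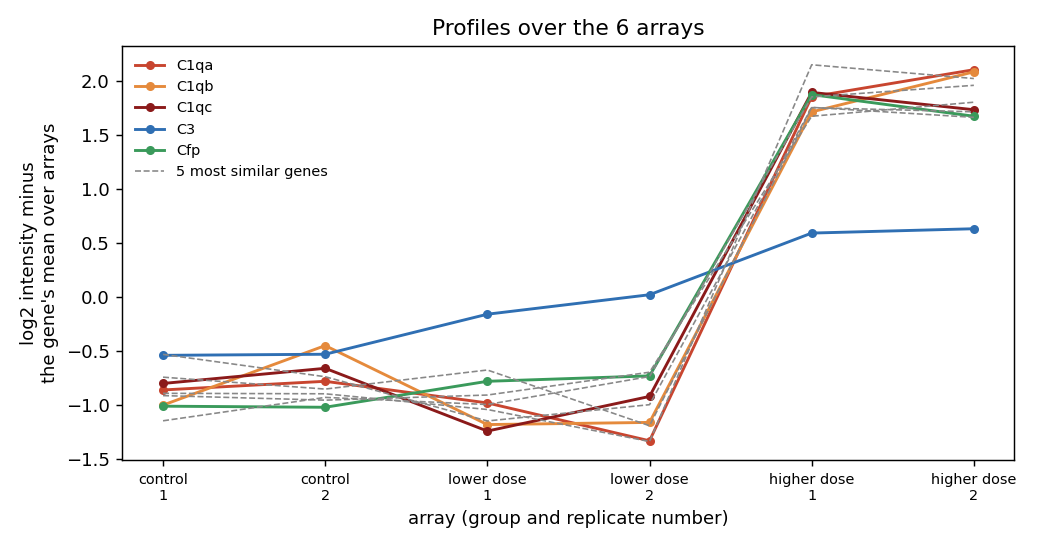
Log2 intensity of each gene minus its own mean, on the 6 arrays, for the 5 complement genes (coloured) and the 5 genes most like the C1q mean (dashed). *C1qa*, *C1qb*, *C1qc* and *Cfp* run together with the dashed lines, within 0.41 of the C1q mean, and *C3* runs apart, with a root mean square difference of 0.98.

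Changes at the higher dose declined with gene length, and 4 of the 5 genes are short. Their spans in the GRCm38.p6 annotation are 2.93 kb for *C1qa*, 3.14 kb for *C1qc*, 6.08 kb for *C1qb*, 6.1 kb for *Cfp* and 24.2 kb for *C3*. Over 10269 genes above the median probe, which are not independent replicates and share the same arrays, Spearman's rho between span and log2 change against control was −0.326 at the higher dose and 0.0607 at the lower dose. In 10 groups of about equal size ordered by span, the shortest genes, with *C1qa* and *C1qc* among them, had a median change of 0.35 at the higher dose, the second group, with *C1qb* and *Cfp*, 0.21, and the sixth, with *C3*, −0.16. Within its own group of genes, 2 of 1027 genes had a larger change than *C1qa*, 5 of 1027 than *C1qc*, 3 of 1027 than *C1qb*, 1 of 1027 than *Cfp* and 30 of 1026 than *C3*. As the 5 genes were chosen by this change, their high places within the groups follow from the choice. With the trend along span removed from every array, the changes against control were 2.60 for *C1qa*, 2.47 for *C1qb*, 2.35 for *C1qc*, 1.20 for *C3* and 2.64 for *Cfp* on the log2 scale.

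**Figure D4:**
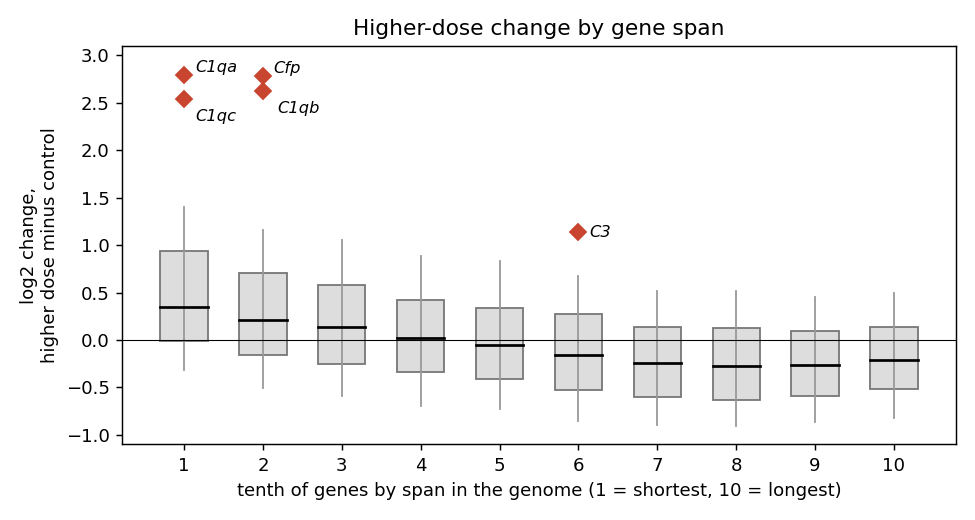
Log2 change at the higher dose against control in 10 groups of about equal size of 10269 genes ordered by span (box, middle 50% of genes; line in the box, median; thin line, 10th to 90th percentile), with the 5 complement genes as diamonds. The medians decline from 0.35 among the shortest genes to −0.28 in the eighth group, and the diamonds, at 1.14 for *C3* and 2.54 to 2.79 for the others, lie above the thin line of their group. The 5 complement genes were chosen by this change.

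The rest of the complement system was read from lists of 80 genes, of which 71 were measured, 33 of them above the median probe. At the lower dose against control, 0 of 71 passed in limma, where 0.0169% of all named genes passed. Of the 71, 3 had an unadjusted p under 0.05, as had 6.36% of all probes. At the higher dose 4 of 71 rose, or 5.63%, and 0 fell, where 6.37% of all named genes rose and 5.39% fell, a share of rises near that of all genes. The median log2 change of the 71 was 0.20, against −0.02 over all named genes.

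Of the proteins that act on or through C1q and C3, *C2*, a substrate of the C1 complex, was the only 1 measured of 8 classical pathway enzymes and substrates. It stood at −0.17 ± 0.32 at the higher dose (adjusted p = 0.775, limma) and at −0.43 ± 0.32 at the lower (adjusted p = 0.806). Both alternative pathway factors were measured, and neither passed: *Cfd*, the protease that activates factor B, stood at 0.63 ± 0.27 at the higher dose (adjusted p = 0.199), and *Cfb*, factor B itself, at −0.22 ± 0.31 at the lower dose (adjusted p = 0.888). Of 9 genes of the lectin pathway, all measured, 1 rose at the higher dose, or 11.1%, where 6.37% of all named genes rose. An unadjusted p under 0.05 was found for 2 of the 9, and for 29.1% of all probes. *Fcna*, a ficolin that recognises sugars on microbes, had 1183 and 923 units in control, 802 and 1022 at the lower dose and 2794 and 2564 at the higher dose, where it rose 2.56-fold against control (log2 1.36 ± 0.21, adjusted p = 0.0269). *Colec10*, a collectin gene, had the smallest p of this list at the lower dose (−0.38 ± 0.23, adjusted p = 0.777). Of 7 terminal pathway genes, 0 passed at the higher dose and 1 had an unadjusted p under 0.05, as had 29.1% of all probes. That gene was *Hc*, which encodes C5, at 0.69 ± 0.20 (adjusted p = 0.0928). *C6* had the smallest p at the lower dose (−1.57 ± 0.66, adjusted p = 0.764).

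Of 16 receptors and C1q-binding proteins, 2 rose and 0 fell at the higher dose, or 12.5% and 0%, where 6.37% of all named genes rose and 5.39% fell. An unadjusted p under 0.05, in either direction, was found for 8 of the 16, and for 29.1% of all probes. *C3ar1*, the receptor of C3a, had 833 and 1270 units in control, 1050 and 969 at the lower dose and 2744 and 4099 at the higher dose, 3.26-fold above control (1.71 ± 0.30, adjusted p = 0.0319). *Itgam*, the α chain of complement receptor 3 and also one of the macrophage markers above, had 2512 and 2175 units in control, 2492 and 2372 at the lower dose and 4122 and 3863 at the higher dose (1.71-fold, 0.77 ± 0.16, adjusted p = 0.0435). *Itgb2*, the β chain of the same receptor, went the other way and did not pass. It had 5601 and 5498 units in control and 3810 and 3476 at the higher dose (−0.61 ± 0.18, adjusted p = 0.101, limma). At the lower dose the smallest p of this list was that of *Scarf1*, a scavenger receptor gene (−1.82 ± 0.43, adjusted p = 0.764). Of 13 inhibitors measured of 14, 1 rose and 0 fell, or 7.69% and 0%, and 3 had an unadjusted p under 0.05. *Clu*, which encodes clusterin, an inhibitor of the terminal complex, had 540 and 715 units in control, 654 and 711 at the lower dose and 1515 and 1756 at the higher dose (2.62-fold, 1.39 ± 0.20, adjusted p = 0.0244). *Csmd1* had the smallest p of the inhibitors at the lower dose (−1.29 ± 0.55, adjusted p = 0.764). Of 23 other genes with a C1q domain, 0 passed at the higher dose and 2 had an unadjusted p under 0.05, as had 29.1% of all probes. The smallest p was that of *Caprin2* (−0.84 ± 0.19, adjusted p = 0.0557), and at the lower dose that of *C1qtnf7* (2.77 ± 0.78, adjusted p = 0.764). Of the genes named by role here, *Cfd*, *Cfb*, *Hc*, *C6*, *Scarf1*, *Csmd1* and *C1qtnf7* had probes below the median probe. *C1qtnf7* had 0.333 and 3.83 units in control, where values under 1 were set to 1, and 9 and 19.8 at the lower dose. *Scarf1* had 9.5 and 8.33 units in control and 1.67 and 3.83 at the lower dose. With log2(value + 16) their lower-dose changes shrank to 0.73 and −0.41.

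All 4 calls were lost without any 1 of the 2 control or 2 higher-dose arrays, and those of *C3ar1* and *Itgam* also without either lower-dose array, fits that leave fewer residual degrees of freedom. The call of *Itgam* was also lost without normalization and with equal medians in its place. The highest adjusted p over the alternatives was 0.132 for *Clu*, 0.141 for *Fcna*, 0.144 for *C3ar1* and 0.199 for *Itgam*. Their log2 changes ranged from 1.19 to 1.59, 1.18 to 1.54, 1.40 to 2.01 and 0.67 to 0.92 in the same order.

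**Figure D5:**
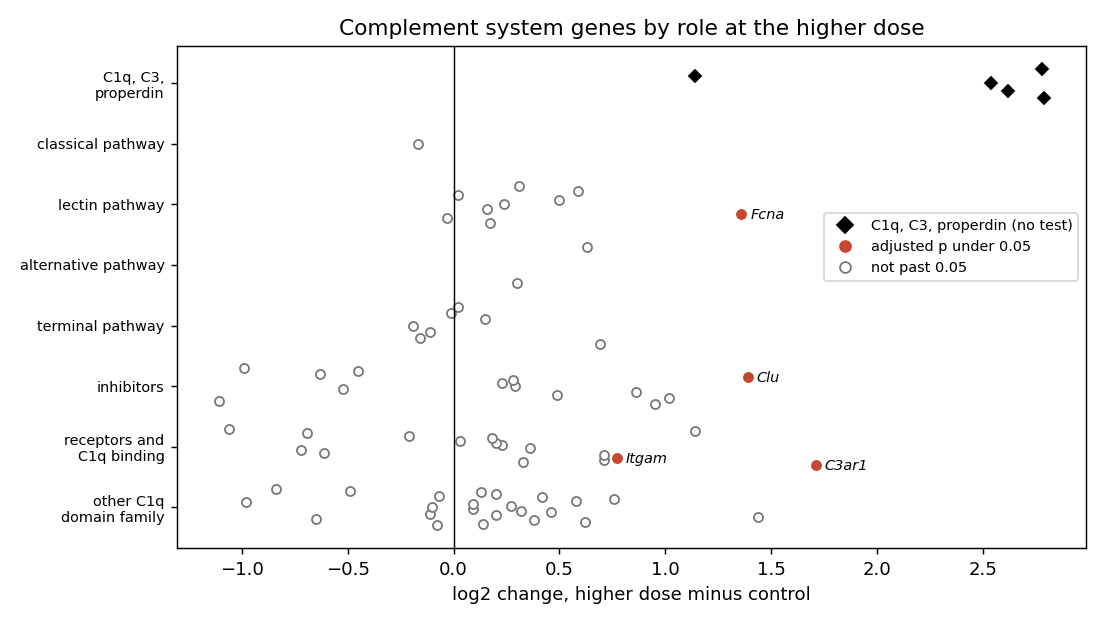
Log2 change at the higher dose against control for the 5 complement genes (diamonds, no test) and for 71 other complement and C1q domain genes by role (circles, filled where the adjusted p in limma was under 0.05). Only *Fcna*, *Clu*, *C3ar1* and *Itgam* of the circles are filled, at 1.36, 1.39, 1.71 and 0.77.

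Against the lower dose, the higher dose had 5 of the 71 up and 3 down, or 7.04% and 4.23%, where 7.74% of all named genes were up and 7.5% down. *Fcna* (1.56 ± 0.21, adjusted p = 0.0203), *Clu* (1.26 ± 0.20, adjusted p = 0.0251), *C3ar1* (1.73 ± 0.30, adjusted p = 0.0276) and *Itgam* (0.71 ± 0.16, adjusted p = 0.045) were higher. So was *Trem2*, a microglial receptor that binds lipids and to which C1q also binds (1.21 ± 0.26, adjusted p = 0.044), with 19452 and 26780 units at the higher dose and 9855 and 9810 at the lower. The lower ones were *Caprin2* (−1.18 ± 0.19, adjusted p = 0.0259), the matrix protein and terminal pathway inhibitor *Vtn* (−0.77 ± 0.17, adjusted p = 0.0476) and *Lair1*, an inhibitory collagen receptor that binds C1q (−0.85 ± 0.19, adjusted p = 0.0484). The second probe of *Lair1* stood at 0.37 (adjusted p = 0.282). In this comparison *C2* (0.26 ± 0.32), *Cfd* (0.58 ± 0.27) and *Hc* (0.70 ± 0.20) did not pass (adjusted p = 0.631, 0.21 and 0.0797). Each of the 8 calls was lost in every fit without 1 array, those of *Clu*, *Itgam* and *Vtn* also without normalization, those of *Vtn* and *Lair1* with equal medians and those of *Trem2* and *Lair1* with the span trend removed, with adjusted p up to 0.201 over the alternatives (for *Vtn*).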

How the data were processed

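RNA from the BV2 cultures was measured on Phalanx mouse OneArray slides in 1 colour, Cy5, per the labels' protocols. What the authors deposited is linear, background-subtracted spot intensity, in whole numbers from −21 to 65489. The submitters' processing notes name RMA, which gives log values with equal distributions, whereas the array medians of these values differ (125 to 170 units). Scanner and background method: not given in the sources used here. Arrays were therefore quantile-normalized, values under 1 set to 1 and log2 taken.

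All 6 arrays were fitted in limma 3.58.1 under R 4.3.3 (a mean for each group, leaving 3 residual degrees of freedom; two-sided, Benjamini-Hochberg over 26423 probes, threshold 0.05). The fit was tested on simulated data. Figures used Python 3.11.15 and matplotlib 3.10.9. Groups came from the titles. Fold changes come from means of log2 values, and errors are standard errors of the fit. Symbols came from the platform annotation (20377 probes named with 1 symbol, none with several, 6046 unnamed here), updated through RefSeq by exact match (18213) or unique synonym (2126), 38 kept. The brightest probe stood for a gene. Promoters matched for 4 of 5 genes.

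The members, gene lists and motifs were chosen with earlier results of these data known. Of the lists, the genes past the threshold (up to 8 per comparison), or else the smallest p of each list, are named, and the 5 genes most like C1q. *Itgb2* is given beside *Itgam* as the other chain of its receptor. Alternatives were no normalization, equal medians, log2(value + 16), only probes above the median, the replicate number as a block, only the groups compared, leaving out each array, the trend with gene span removed (lowess, fraction 0.3) and each gene's probes averaged.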

Additional observations from a re-analysis of the deposited data

How the results depend on the processing

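The signs of the 5 complement genes' changes were the same in all 13 alternatives of all 3 comparisons, and at the lower dose none was called in any. As the normalized groups did not overlap for these genes, only no normalization, equal medians and removal of the span trend could have changed a sign. The number of calls depended on the fit. At the lower dose against control, 3 probes passed, and 0 with equal medians, 0 with the replicate block, 0 with only the 2 groups compared, 1 among probes above the median and 0 to 9 without 1 array. At the higher dose against control, 2803 passed, and 4764 with log2(value + 16), 5524 among probes above the median, 11 with the replicate block, 1584 with only the 2 groups compared and 5 to 1584 without 1 array. Between the higher and the lower dose, 3629 passed (1792 higher and 1837 lower), and 5645 with log2(value + 16), 6163 among probes above the median, 1395 with the replicate block, 7 with only the 2 groups compared and 6 to 25 without 1 array. Without normalization that split was 1127 higher and 2965 lower, with a median of −0.25 over all probes.

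Of the 71 other complement and C1q domain genes, 4 passed at the higher dose against control, and 13 with log2(value + 16), 12 among probes above the median (33 genes tested), 2 with only the 2 groups compared and 0 with the replicate block. With the span trend removed, a fit and correction over 20339 probes, 7 passed. With each gene's probes averaged 8 passed, where the fit and correction covered only the 17742 named genes. Between the doses 8 passed, and 13 among probes above the median, 5 without normalization, 3 with the replicate block, 0 with only the 2 groups compared and 0 without any 1 array. At the lower dose 0 passed in all of them.

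With the replicate block, the adjusted p of the 4 calls against control was 0.0517 for *Clu*, 0.0607 for *Fcna*, 0.0549 for *C3ar1* and 0.0699 for *Itgam*. Between the doses, the block left *Clu*, *Fcna* and *C3ar1* called, and *Itgam* (0.0684), *Trem2* (0.0539), *Vtn* (0.0793), *Caprin2* (0.0512) and *Lair1* (0.0808) not.

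Fits without 1 array have 2 residual degrees of freedom, not 3, and assume that a lone array varies like the other groups. The titles number arrays 1 and 2 in each group, which is a shared number only: deviations of same-numbered arrays correlated at 0.0326 (lower dose and control), 0.313 (higher dose and control) and −0.226 (higher and lower dose). Signal over background was not given with the intensities, and 2 arrays per group limit the precision.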
